A study of Arabidopsis thaliana with 14 samples.

Results

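Glutathione S-transferases were followed as a gene family through the 5 groups of an RNA-Seq study of brassinosteroid (BR) and hydrogen peroxide signaling in Arabidopsis. A gene was counted as a member where its deposited description contains the words glutathione S-transferase, in upper or lower case, or where its symbol is that of a numbered tau, phi, zeta, theta or lambda enzyme. This gave 57 genes of the 24350 listed in the tables, of which 48 were matched by symbol and 55 by description. The members comprised 28 tau genes (symbols GSTU, and ERD9, an older name of GSTU17), 13 phi genes (GSTF), 3 theta genes (GSTT), 3 lambda genes (GSTL), 2 zeta genes (GSTZ), 1 microsomal enzyme and 7 genes with a family description only. Family genes whose description uses other words, such as dehydroascorbate reductases, were not counted.

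The study holds 14 samples of seedlings grown for 6 days in the dark, with hypocotyl given as the tissue. All groups carried 2 µM PPZ (propiconazole), an inhibitor of BR biosynthesis, in the medium, so the controls were BR-depleted as well. The groups were bzr1-1D with 1 µM DPI and 0.3 mM H2O2 (bzr1-1D DPI plus H2O2, 2 samples), bzr1-1D with 1 µM DPI (bzr1-1D DPI, 3 samples), bzr1-1D with PPZ alone (bzr1-1D mock, 3 samples), wild type with 1 µM DPI (Col-0 DPI, 3 samples) and wild type with PPZ alone (Col-0 mock, 3 samples), all in the Columbia ecotype. DPI (diphenyleneiodonium) inhibits NADPH oxidases and other flavoenzymes, and bzr1-1D is a dominant gain-of-function allele of BZR1, a transcription factor of the BR pathway. The 14 samples include no wild type given H2O2, so the H2O2 effect can be read here in bzr1-1D only. The deposited tables hold 1 mean per gene and group, taken here as FPKM (fragments per kilobase of transcript, scaled to library size, so that levels of genes of different length can be compared). Values per sample were not analysed here. Therefore no value below has a standard deviation or a test, the depth per sample is unknown, and a difference between groups cannot be set against the spread between replicates. From their decimals, the means of bzr1-1D DPI, Col-0 DPI and Col-0 mock each average 3 libraries, whereas those of bzr1-1D DPI plus H2O2 and of bzr1-1D mock average 2, although the labels list 3 bzr1-1D mock samples.

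Glutathione S-transferases join the tripeptide glutathione to reactive or foreign compounds, which are then moved to the vacuole, and many also reduce peroxides or bind small molecules such as flavonoids and hormones. The tau and phi classes are specific to plants and are known for their induction by herbicides, safeners, oxidized lipids and other electrophiles. The bZIP transcription factors TGA2, TGA5 and TGA6, together with the GRAS protein SCL14, are known to act in this detoxification response through TGACG motifs of the as-1 type, whereas BZR1 is known to bind the BR response elements CGTGTG and CGTGCG and the G-box CACGTG.

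Promoter sequences are shown for 10 tau genes. They include genes higher and genes lower with DPI in bzr1-1D, each with and without TGACG upstream, and GSTU7, which was not called (called meaning a difference of at least 1.5-fold). GSTU7 holds TGACG, and no uncalled gene without it is shown, although such tau genes exist. GSTU24, GSTU25, GSTU9, GSTU11, GSTU22 and GSTU1 hold TGACG and were higher with DPI, and GSTU8 was higher without it. ERD9, GSTU12, GSTU4, GSTU2, GSTU19 and GSTU20 were also higher with DPI, have no TGACG upstream and are not shown. The genes shown therefore overstate how often higher tau genes hold TGACG. GSTU6 holds TGACG and was lower with DPI, and GSTU26, beside GSTU24 and GSTU25, was lower without it. GSTU7, which was not called, holds the most matches, of which those at 52 and 49 bases before the start overlap in TGACGTCA, read on both strands. Both cases depend on the scaling. Relative to the median gene, GSTU6 was no longer called (log2 difference −0.48) and GSTU7 was called higher (0.60). Each stretch has 100 bases taken from the 250 bases before the annotated gene start, with the distance of its first base from the start given, written 5′ to 3′ on the gene's strand, from the RefSeq genome (TAIR10.1), with TGACG or its reverse complement CGTCA in capitals.
GSTU24, chr1:5869329-5869428, forward strand, from 214 bases before the start: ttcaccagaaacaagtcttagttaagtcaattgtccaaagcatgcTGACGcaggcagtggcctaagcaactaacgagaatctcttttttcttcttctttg
GSTU25, chr1:5871892-5871991, forward strand, from 132 bases before the start: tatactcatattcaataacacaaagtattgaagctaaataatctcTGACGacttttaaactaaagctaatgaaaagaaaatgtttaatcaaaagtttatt
GSTU26, chr1:5875195-5875294, forward strand, from 100 bases before the start: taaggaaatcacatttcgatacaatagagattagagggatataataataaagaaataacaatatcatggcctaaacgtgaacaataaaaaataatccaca
GSTU9, chr5:25089671-25089770, reverse strand, from 144 bases before the start: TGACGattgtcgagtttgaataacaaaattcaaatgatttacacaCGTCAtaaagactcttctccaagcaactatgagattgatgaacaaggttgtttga
GSTU11, chr1:26338836-26338935, reverse strand, from 117 bases before the start: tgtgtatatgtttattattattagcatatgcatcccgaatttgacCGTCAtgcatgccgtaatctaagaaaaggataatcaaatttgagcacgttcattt
GSTU22, chr1:29474036-29474135, reverse strand, from 132 bases before the start: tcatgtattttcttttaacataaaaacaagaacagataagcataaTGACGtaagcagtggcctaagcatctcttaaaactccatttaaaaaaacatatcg
GSTU1, chr2:12632549-12632648, reverse strand, from 110 bases before the start: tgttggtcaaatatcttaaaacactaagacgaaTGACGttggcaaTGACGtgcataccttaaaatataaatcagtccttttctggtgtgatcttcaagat
GSTU7, chr2:12618900-12618999, reverse strand, from 100 bases before the start: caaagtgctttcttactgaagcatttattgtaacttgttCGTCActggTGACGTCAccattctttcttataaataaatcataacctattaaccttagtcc
GSTU8, chr3:2849687-2849786, reverse strand, from 100 bases before the start: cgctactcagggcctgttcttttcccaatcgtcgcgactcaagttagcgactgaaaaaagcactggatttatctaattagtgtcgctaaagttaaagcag
GSTU6, chr2:12621339-12621438, reverse strand, from 207 bases before the start: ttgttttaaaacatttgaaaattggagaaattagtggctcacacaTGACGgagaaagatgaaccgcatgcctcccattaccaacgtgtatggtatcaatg

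TGACG, searched on both strands from 250 bases before to 50 bases after the annotated start, was found in 10 of the 17 members that were at least 1.5-fold higher with DPI in bzr1-1D (58.8%), in 4 of the 9 members that were lower (44.4%) and in 6 of the 31 members that were not called (19.4%). The members higher and lower with DPI thus differed less in this share than both did from those not called. In GSTU19, GSTU20 and GSTL1, which were higher, and ATGSTF13, which was not called, the match was not wholly within the 250 bases before the start. The matches of the lower members all were, so upstream alone the share of higher members was not above that of the lower ones. All 57 members had such a window, and so did 27443 protein-coding genes in all, of which 23.1% held TGACG. The share was 46.4% among the 28 tau genes and 35.1% among all members. GSTU7 had 3 matches upstream, of which those at 52 and 49 bases overlap in TGACGTCA, and GSTU9 and GSTU1 had 2 each. Among the tau genes that were higher with DPI, GSTU8, ERD9, GSTU12, GSTU4 and GSTU2 had none, and GSTU19 and GSTU20 had none upstream. In contrast, GSTU6 and GSTU5, which were lower, had 1 each, but neither was called relative to the median gene (−0.48 and −0.41). Of the BZR1-bound motifs, CACGTG was found in 6 of 57 members (10.5%, against 7.68% of all windows), CGTGTG in 2 (3.51%, against 6.52%) and CGTGCG in none (against 1.96%). CACGTG and TGACG can each share letters with CGTGTG or CGTGCG where they lie end to end, and each such match was counted. A match is a run of letters, and binding was not measured. GSTU24 and GSTU22, which lie in different arrays of chromosome 1, hold the same 15-letter run a few bases after TGACG, GCAGTGGCCTAAGCA, which starts 161 bases before GSTU24 and 79 bases before GSTU22. Of all 27443 windows, 2 held this run, those of GSTU24 and GSTU22. It was picked as the longest run shared by any pair of the genes shown, with GSTU8 and GSTU6 not searched. GSTU24 and GSTU22 also share 72.6% of their coding bases. GSTU26, which was lower with DPI, holds TGGCCTAA of this run, found in 0.532% of windows.

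Summed over the 57 members, the family's level was 5923 FPKM in bzr1-1D DPI plus H2O2, 4227 FPKM in bzr1-1D DPI, 3116 FPKM in bzr1-1D mock, 2039 FPKM in Col-0 DPI and 2249 FPKM in Col-0 mock. These sums are 0.843%, 0.595%, 0.447%, 0.279% and 0.322% of all FPKM of the same groups in the same order. All bzr1-1D groups therefore stood above both Col-0 groups, and within bzr1-1D the sum was higher with DPI and highest with DPI and H2O2. Most of this came from phi and tau genes. Phi genes summed to 2761 FPKM in bzr1-1D DPI plus H2O2, 2025 FPKM in bzr1-1D DPI, 1948 FPKM in bzr1-1D mock, 1164 FPKM in Col-0 DPI and 1262 FPKM in Col-0 mock. Tau genes summed to 2478 FPKM in bzr1-1D DPI plus H2O2, 1785 FPKM in bzr1-1D DPI, 804 FPKM in bzr1-1D mock, 654 FPKM in Col-0 DPI and 729 FPKM in Col-0 mock. The phi sum thus differed mainly by genotype and with H2O2, and the tau sum mainly between bzr1-1D with DPI and the other groups. The 10 members with the highest mean over the groups, GSTF2, GSTF8, GSTU19, GSTF9, GSTF10, GSTU24, GSTU7, GSTZ1, AT4G19880 and GSTF7, made up 73.6% to 78.4% of the family's sum in each group.

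**Figure D1:**
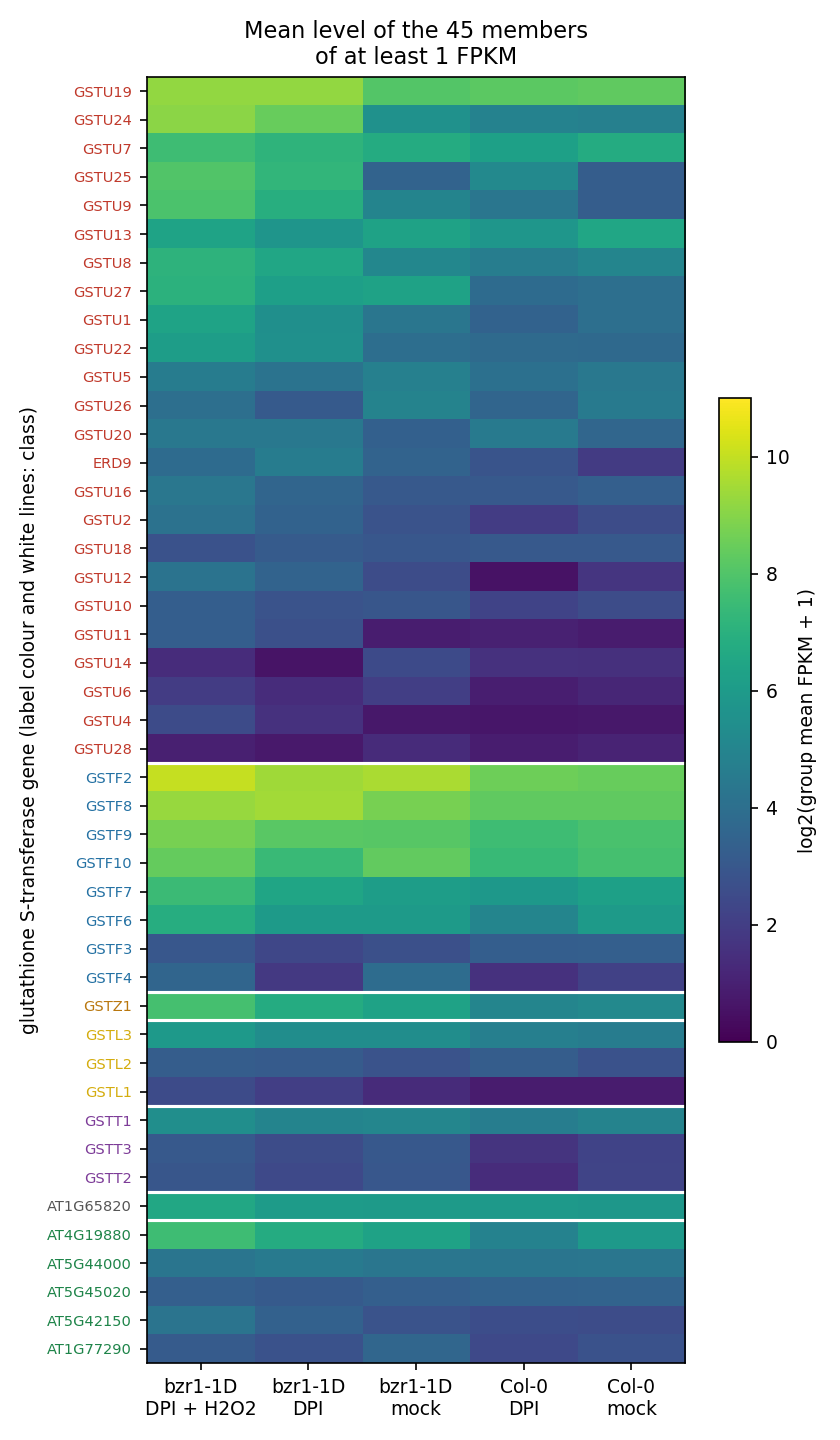
Group means of the 45 members with a mean over the groups of at least 1 FPKM, as log2(FPKM + 1) by color, with genes down the page by class and groups across. GSTF2 reached 1044 FPKM in bzr1-1D DPI plus H2O2, and GSTU24 and GSTU25 stood out in the 2 bzr1-1D groups with DPI.

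Of the 57 members, 45 had a mean over the groups of at least 1 FPKM and 27 of at least 10 FPKM, whereas 10 stayed below 1 FPKM in every group in which they are listed. GSTF11 is listed in 4 groups, without bzr1-1D DPI plus H2O2. In bzr1-1D DPI plus H2O2, 33 of 57 members (57.9%) had their highest group mean, against 31.0% of the 23225 genes listed in all 5 groups. Comparisons were made on log2(mean + 1 FPKM), which understates the change of low genes, and a gene was called higher or lower from a difference of 1.5-fold on this scale. No member was left out for a low level. The means of most genes moved together in several comparisons: the median gene of at least 1 FPKM differed by 0.12 (log2) between bzr1-1D mock and Col-0 mock, −0.24 between Col-0 DPI and Col-0 mock, −0.20 between bzr1-1D DPI and bzr1-1D mock, 0.17 between bzr1-1D DPI and Col-0 DPI, 0.25 between bzr1-1D DPI plus H2O2 and bzr1-1D DPI, and 0.04 between bzr1-1D DPI plus H2O2 and bzr1-1D mock. Counts relative to this shift are given as centered counts below. The 6 comparisons share groups with each other, so their counts are not independent.

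**Figure D2:**
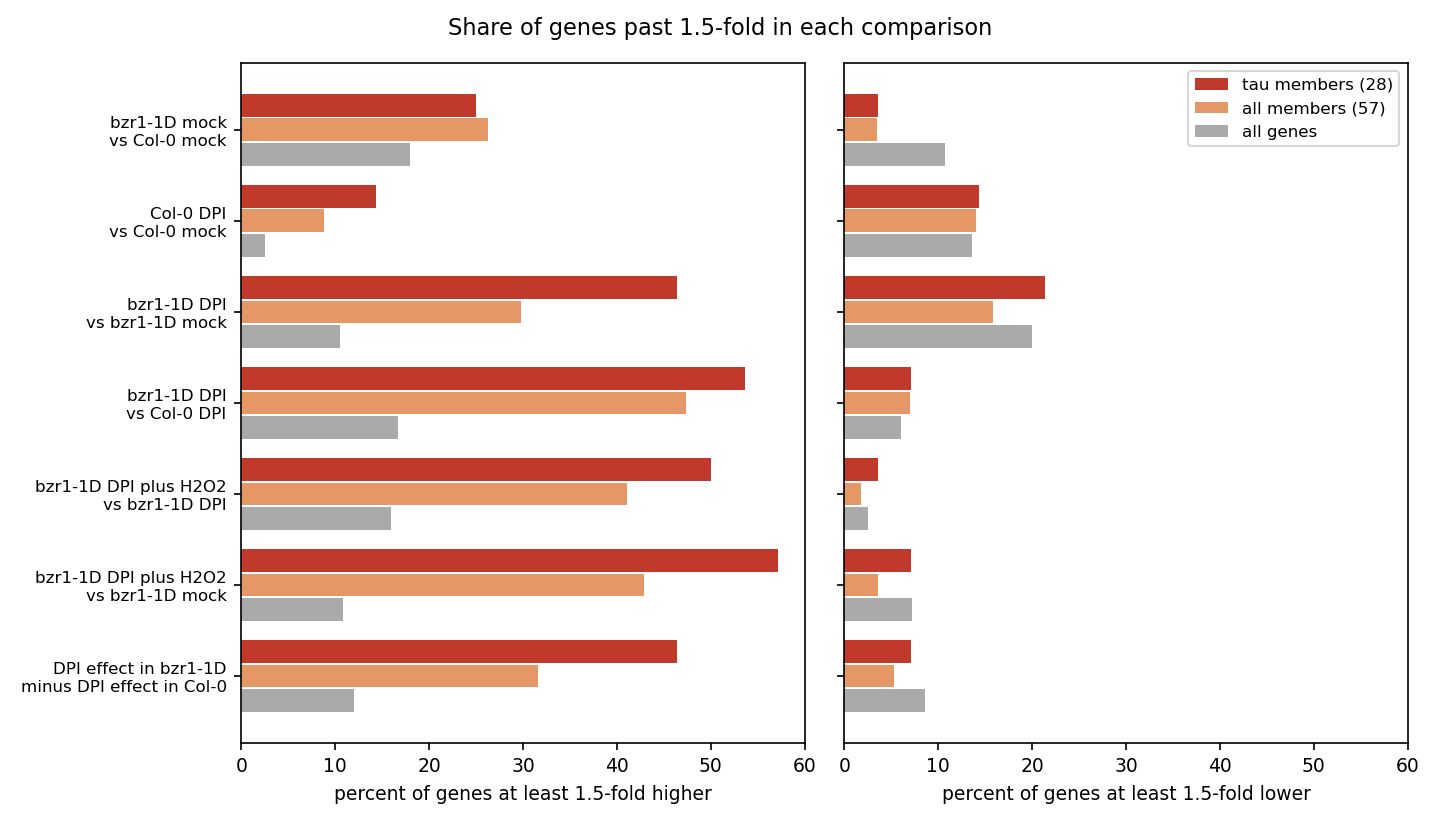
Percent of tau members, of all members and of all genes that were at least 1.5-fold higher (left) or lower (right), 1 block of bars per comparison. The share of higher members was above that of all genes in each comparison, with 47.4% against 16.7% in bzr1-1D DPI vs Col-0 DPI, and the share of lower members lay between 1.79% and 15.8%.

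To see how the family differed by genotype without DPI, bzr1-1D mock was compared with Col-0 mock. Of the 57 members, 15 were higher in bzr1-1D mock (26.3%, against 18.0% of all genes) and 2 were lower (3.51%, against 10.7%). The median member differed by 0.19 (log2), against 0.08 for all genes, and by 0.07 after centering. The centered counts were 14 higher and 2 lower (centered shares of all genes 13.6% and 13.9%). The members that were higher came from 5 classes and the family-only group, with 7 tau, 3 phi, 2 theta, 1 lambda and 1 zeta gene among them. GSTU27 was at 79.5 FPKM in bzr1-1D mock, against 15.0 FPKM in Col-0 mock, the largest positive difference of the family here (log2 difference 2.33). GSTF4 was at 13.8 FPKM in bzr1-1D mock, against 3.34 FPKM in Col-0 mock, and GSTU9 at 30.5 FPKM in bzr1-1D mock, against 8.57 FPKM in Col-0 mock. GSTF2, which binds indole compounds such as camalexin and has the highest mean over the 5 groups of the family, was at 769.9 FPKM in bzr1-1D mock, against 349 FPKM in Col-0 mock. GSTF10, reported to interact with the BR co-receptor BAK1, was at 325 FPKM in bzr1-1D mock, against 215 FPKM in Col-0 mock, a difference no longer called after centering (log2 difference 0.47). GSTZ1, the maleylacetoacetate isomerase of tyrosine breakdown, was at 80.8 FPKM in bzr1-1D mock, against 35.2 FPKM in Col-0 mock. The members that were lower, GSTF3 and GSTU23, were at 5.46 and 0.28 FPKM in bzr1-1D mock, against 8.93 and 1.89 FPKM in Col-0 mock.

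To see the DPI difference without the bzr1-1D allele, Col-0 DPI was compared with Col-0 mock, and few members were higher. Of the 57 members, 5 were higher in Col-0 DPI than in Col-0 mock (8.77%, against 2.53% of all genes) and 8 were lower (14.0%, against 13.6%). The median member differed by −0.11 (log2), against −0.17 for all genes, and by 0.13 after centering, when 6 members were higher and 6 lower (centered shares of all genes 6.12% and 5.31%). The sign of the median thus depends on the scaling. GSTU25 differed most, with 35.4 FPKM in Col-0 DPI and 8.41 FPKM in Col-0 mock (log2 difference 1.95). GSTU25 and its neighbor GSTU24 are known to conjugate the explosive TNT. GSTU9 was at 18.8 FPKM in Col-0 DPI and 8.57 FPKM in Col-0 mock, and ERD9, named for its early response to dehydration, at 6.18 FPKM in Col-0 DPI and 2.78 FPKM in Col-0 mock. GSTU20, which binds the jasmonate-conjugating enzyme JAR1, was at 22.4 FPKM in Col-0 DPI and 11.5 FPKM in Col-0 mock. GSTF12, which carries anthocyanins to the vacuole, was below 1 FPKM in both groups. Among the lower members were AT4G19880, with 28.6 FPKM in Col-0 DPI and 60.2 FPKM in Col-0 mock, and GSTF6, an enzyme of camalexin synthesis, with 31.0 FPKM in Col-0 DPI and 62.5 FPKM in Col-0 mock. GSTU12 was at 0.457 FPKM in Col-0 DPI and 2.26 FPKM in Col-0 mock.

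In bzr1-1D, many of the genes that were higher with DPI were of the tau class. Of the 57 members, 17 were higher in bzr1-1D DPI than in bzr1-1D mock (29.8%, against 10.5% of all genes) and 9 were lower (15.8%, against 20.0%). Of the 28 tau genes, 13 were higher and 6 lower, whereas 2 of 13 phi genes were higher and 2 lower. The centered counts were 21 higher and 5 lower, beside centered shares of all genes of 15.7% and 12.3%, so the split moved upward in all genes as well. GSTU7 (0.60), GSTZ1 (0.61) and AT4G19880 (0.61) were among the 4 members called higher only after centering. The median member differed by 0.05 (log2), against −0.12 for all genes, and by 0.24 after centering. Among members with a mean over the groups of at least 1 FPKM it was 0.23, against −0.20 for all such genes. GSTU11 and GSTU4 pass this filter only through the bzr1-1D groups with DPI, where they are high, so the filtered median is not independent support. The median tau gene differed by 0.46.

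GSTU25 was at 149 FPKM in bzr1-1D DPI and 10.4 FPKM in bzr1-1D mock, a ratio of 14.3 (log2 difference 3.71), and ranked 17 of 24010 genes by its log2 difference. GSTU24 was at 345 FPKM in bzr1-1D DPI and 46.9 FPKM in bzr1-1D mock, a ratio of 7.36, and ranked 49. GSTU9 was at 118 FPKM in bzr1-1D DPI and 30.5 FPKM in bzr1-1D mock. These 3 genes had the largest differences of the family in this comparison, and GSTU9 lies on another chromosome than GSTU24 and GSTU25. GSTU11 was at 5.40 FPKM in bzr1-1D DPI and 0.84 FPKM in bzr1-1D mock, GSTU22 at 44.9 and 14.6 FPKM in the same groups, and GSTU8 at 91.5 and 33.2 FPKM. GSTU1 was at 44.0 FPKM in bzr1-1D DPI and 18.8 FPKM in bzr1-1D mock. GSTU19, an abundant enzyme known for its induction by herbicide safeners, was at 599.5 FPKM in bzr1-1D DPI and 264 FPKM in bzr1-1D mock. Among the phi genes, GSTF8, a widely used early stress marker, was at 714 FPKM in bzr1-1D DPI and 424 FPKM in bzr1-1D mock.

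Other members were lower with DPI in bzr1-1D, although 4 of the 9, GSTU13, GSTU28, GSTU6 and GSTU5, were not called after centering. GSTF4 was at 2.59 FPKM in bzr1-1D DPI and 13.8 FPKM in bzr1-1D mock (log2 difference −2.05), and GSTU26 at 7.68 FPKM in bzr1-1D DPI and 29.6 FPKM in bzr1-1D mock (log2 difference −1.82). GSTU14 was at 0.473 FPKM in bzr1-1D DPI and 4.51 FPKM in bzr1-1D mock. GSTF10 was at 174 FPKM in bzr1-1D DPI and 325 FPKM in bzr1-1D mock, and GSTU13, which acts in defense metabolism derived from indole glucosinolates, at 51.6 and 79.8 FPKM in these groups. In Col-0, GSTU26 and GSTU13 were lower with DPI, with log2 differences of −0.93 and −0.76. GSTF4, GSTF10 and GSTU14 were not called in Col-0, with −0.54, −0.35 and 0.03.

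The DPI difference was then set side by side in the genotypes, which share no samples. Of the 17 members that were higher with DPI in bzr1-1D, 5 were higher, 10 were not called and 2 were lower with DPI in Col-0. Those higher in both were ERD9, GSTU25, GSTU20, GSTF12 and GSTU9, and those higher in bzr1-1D and lower in Col-0 were GSTU12 and GSTU2. How all genes higher with DPI in bzr1-1D split in Col-0 was not computed. Of all genes, 2.53% were higher and 13.6% lower with DPI in Col-0, so this split is not set against a matching share. The lower call in Col-0 was lost for GSTU2 after centering (−0.40) and for GSTU12 with a pseudocount of 5 FPKM (−0.41). The DPI difference in bzr1-1D minus that in Col-0 was at least 1.5-fold toward bzr1-1D for 18 members (31.6%, against 12.0% of all genes) and at least 1.5-fold the other way for 3 members (5.26%, against 8.60%). Of the 18 members, 13 were tau genes. GSTU24 had the largest value, with a log2 difference of 2.85 in bzr1-1D and 0.10 in Col-0. For GSTU25 the values were 3.71 in bzr1-1D and 1.95 in Col-0, and for GSTU12 they were 0.94 in bzr1-1D and −1.16 in Col-0. In contrast, ERD9 had 1.11 in bzr1-1D and 0.93 in Col-0, and GSTU20 had 1.03 in bzr1-1D and 0.90 in Col-0. With group means only, the difference between the genotypes was not tested.

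**Figure D3:**
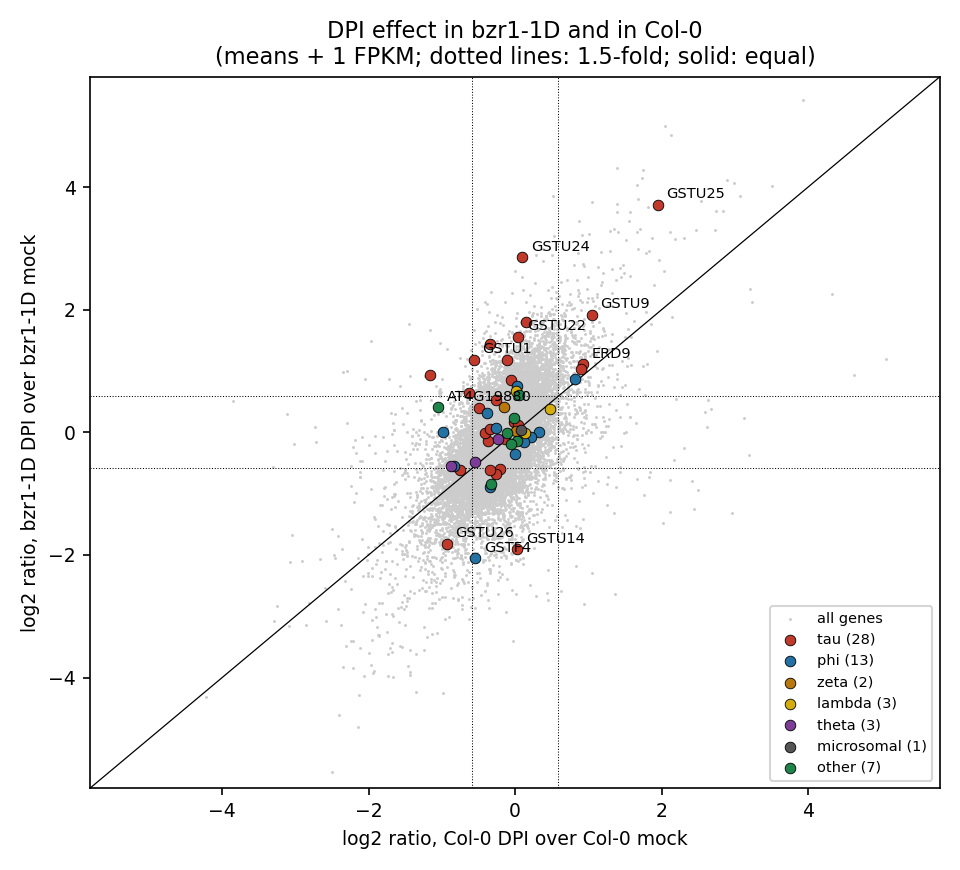
Log2 difference with DPI in bzr1-1D (vertical axis) against that in Col-0 (horizontal axis), with all genes in gray and members colored by class. GSTU24 lies at 2.85 on the vertical and 0.10 on the horizontal axis, far above the line of equal effects, whereas ERD9 lies near it.

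With DPI in both genotypes, the family differed more by genotype than without it. Of the 57 members, 27 were higher in bzr1-1D DPI than in Col-0 DPI (47.4%, against 16.7% of all genes) and 4 were lower (7.02%, against 6.01%). The median member differed by 0.47 (log2), against 0.11 for all genes, and by 0.30 after centering. Among members with a mean over the groups of at least 1 FPKM it was 0.81, against 0.17 for all such genes. That set again includes GSTU11 and GSTU4, which pass only through the bzr1-1D groups with DPI. The centered counts were 23 higher and 6 lower, beside centered shares of all genes of 10.9% and 9.56%, so the share of lower members (10.5%) was near that of all genes. Of the tau genes, 15 of 28 were higher and 2 lower. GSTU24 was at 345 FPKM in bzr1-1D DPI and 28.7 FPKM in Col-0 DPI, a ratio of 12.0, whereas the mock groups had 46.9 FPKM in bzr1-1D, against 26.7 FPKM in Col-0. GSTU12 was at 10.4 FPKM in bzr1-1D DPI and 0.457 FPKM in Col-0 DPI, and GSTU9 at 118 FPKM in bzr1-1D DPI and 18.8 FPKM in Col-0 DPI. GSTU27 was at 73.9 FPKM in bzr1-1D DPI and 13.5 FPKM in Col-0 DPI, close to its levels in the mock groups of the same genotypes. GSTZ1 was at 108 FPKM in bzr1-1D DPI and 31.6 FPKM in Col-0 DPI, and AT4G19880 at 106 FPKM in bzr1-1D DPI and 28.6 FPKM in Col-0 DPI. GSTF3 was again lower, with 4.06 FPKM in bzr1-1D DPI and 8.89 FPKM in Col-0 DPI. However, GSTF3 and GSTF2 share 94.5% of their coding bases, so reads of these genes may have been split between them and their values are uncertain.

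Among the samples, H2O2 was added to DPI in bzr1-1D only, and the family's level was compared between both bzr1-1D groups with DPI. Of the 56 members with both means, 23 were higher in bzr1-1D DPI plus H2O2 than in bzr1-1D DPI (41.1%, against 15.9% of all genes) and 1 was lower (1.79%, against 2.55%). The median member differed by 0.54 (log2), against 0.17 for all genes, and by 0.29 after centering. This comparison was sensitive to scaling, since the centered counts were 11 higher and 3 lower, against 6.04% higher and 7.42% lower for all genes. At a threshold of 2-fold 2 members were called, and the share of all genes at 2-fold was not computed. GSTU25 was at 257 FPKM in bzr1-1D DPI plus H2O2, 149 FPKM in bzr1-1D DPI and 10.4 FPKM in bzr1-1D mock. GSTU24 was at 544 FPKM in bzr1-1D DPI plus H2O2, 345 FPKM in bzr1-1D DPI and 46.9 FPKM in bzr1-1D mock. GSTU9 was at 232 FPKM in bzr1-1D DPI plus H2O2, 118 FPKM in bzr1-1D DPI and 30.5 FPKM in bzr1-1D mock. In these genes the mean with DPI and H2O2 was thus further from the mock mean than that with DPI alone. Between the groups with DPI, GSTU9 stayed called after centering (0.72), whereas GSTU24 (0.41) and GSTU25 (0.54) did not.

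Several members with a lower level in bzr1-1D DPI than in bzr1-1D mock are given side by side with the H2O2 group, since both comparisons rest on the same bzr1-1D DPI means. GSTF4 was at 11.0 FPKM in bzr1-1D DPI plus H2O2, 2.59 FPKM in bzr1-1D DPI and 13.8 FPKM in bzr1-1D mock. GSTF10 was at 340.2 FPKM in bzr1-1D DPI plus H2O2, 174 FPKM in bzr1-1D DPI and 325 FPKM in bzr1-1D mock. GSTU13 was at 82.7, 51.6 and 79.8 FPKM in the same groups. GSTU26, at 15.2 FPKM in bzr1-1D DPI plus H2O2, stayed below its 29.6 FPKM in bzr1-1D mock. GSTU19 and GSTF8 were about level between the groups with DPI, with 589.5 and 634 FPKM in bzr1-1D DPI plus H2O2 and 599.5 and 714 FPKM in bzr1-1D DPI. ERD9 was the member that was lower, at 13.4 FPKM in bzr1-1D DPI plus H2O2 and 23.6 FPKM in bzr1-1D DPI. GSTF7 was at 177 FPKM in bzr1-1D DPI plus H2O2 and 86.2 FPKM in bzr1-1D DPI, but it shares 94.7% of its coding bases with GSTF6, which makes the split between them uncertain.

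Against bzr1-1D mock, 24 of 56 members were higher in bzr1-1D DPI plus H2O2 (42.9%, against 10.8% of all genes) and 2 were lower (3.57%, against 7.19%), and the centered counts of 23 and 2 were close to these. Of the tau genes, 16 of 28 were higher and 2, GSTU26 and GSTU14, were lower. GSTU25 showed the largest difference, with a ratio of 24.7 (log2 difference 4.50). The next were GSTU24, with a log2 difference of 3.51, and GSTU9, with 2.89.

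**Figure D4:**
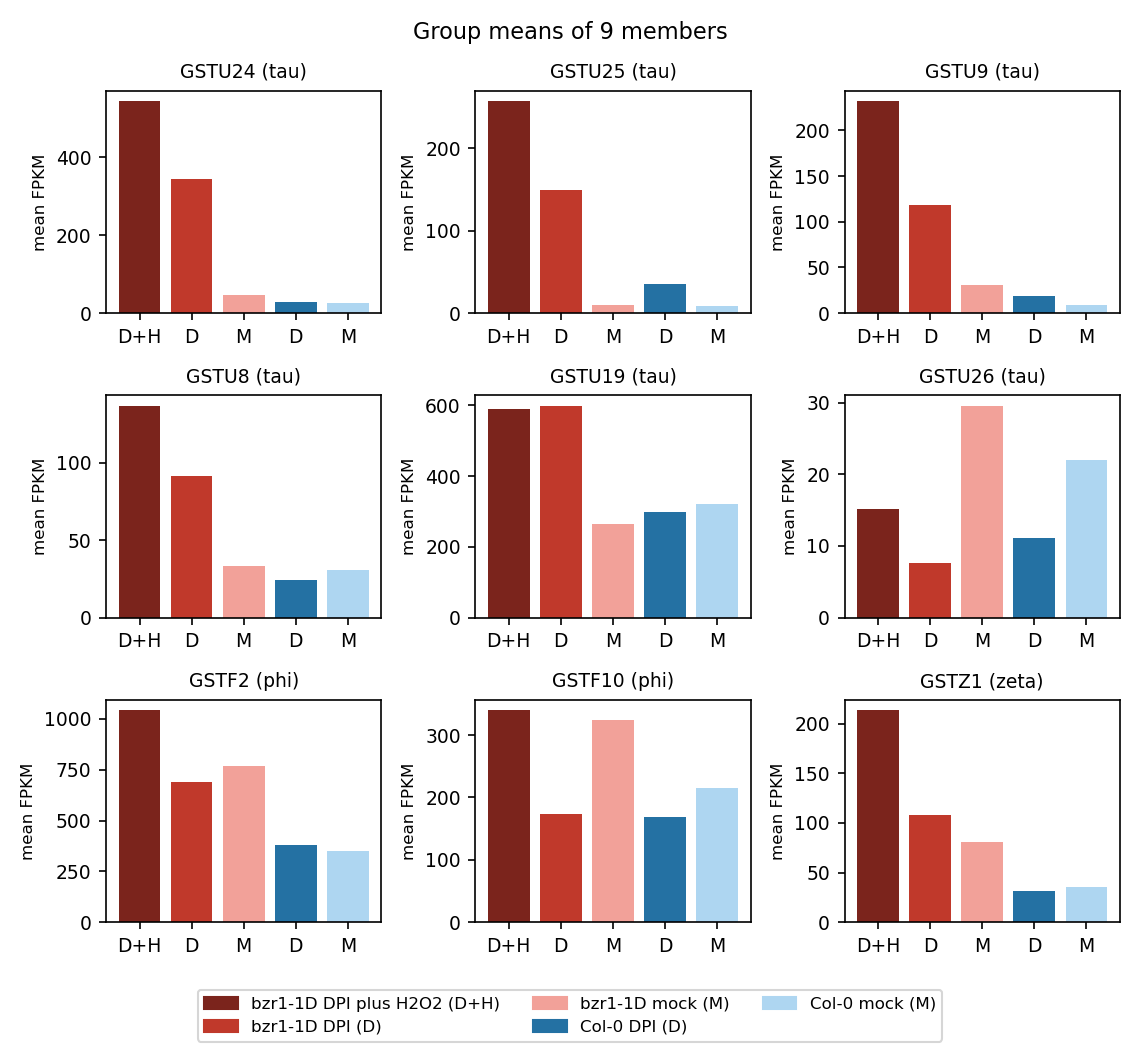
Group means in FPKM (vertical axis, each panel with its own scale from 0) of 9 members in bzr1-1D DPI plus H2O2 (D+H), bzr1-1D DPI (D), bzr1-1D mock (M), Col-0 DPI (D) and Col-0 mock (M); bars are authors' means without error. GSTU24, GSTU25 and GSTU9 were highest with DPI plus H2O2, whereas GSTF10 had 340.2 FPKM with DPI plus H2O2 and 325 FPKM in bzr1-1D mock, above the 174 FPKM with DPI alone.

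Many members lie in tandem arrays, in which neighbors are at most 10 kb apart, and in several of them neighbors differed in direction. The array of GSTU24, GSTU25 and GSTU26 (chr1:5869543-5876620) held 2 of the genes with the largest DPI differences in bzr1-1D and 1 of the genes with the lowest, at log2 differences of 2.85, 3.71 and −1.82. With H2O2 added to DPI, all 3 were higher, by 0.66, 0.78 and 0.90 (log2), and after centering GSTU26 alone was still called (0.66). In the array of 5 genes from GSTU23 to GSTU19 (chr1:29467437-29488007), GSTU22, GSTU20 and GSTU19 were higher with DPI in bzr1-1D, whereas GSTU23 and GSTU21 were at or below 0.28 FPKM with and without DPI in bzr1-1D. In the array of 7 genes from GSTU7 to GSTU1 on chromosome 2 (chr2:12617936-12632538), GSTU4, GSTU2 and GSTU1 were higher with DPI in bzr1-1D, GSTU6 and GSTU5 were lower, and GSTU7 and GSTU3 were not called. GSTU7 was at 143 FPKM in bzr1-1D DPI and 108 FPKM in bzr1-1D mock, and was called higher after centering (0.60). In Col-0, none of these 7 genes was higher with DPI and GSTU2 was lower. The phi array from GSTF7 to GSTF4 (chr1:658578-666452) had 1 gene lower with DPI in bzr1-1D, GSTF4, and 3 genes higher when H2O2 was added. GSTU12 and GSTU11 (chr1:26334250-26338818) were both higher in bzr1-1D DPI than in either bzr1-1D mock or Col-0 DPI. GSTU13 and GSTU14 (chr1:9425280-9428914) were both lower with DPI in bzr1-1D and both higher when H2O2 was added, but GSTU13 was called in neither comparison after centering (−0.42 and 0.43), nor GSTU14 in that with H2O2 (0.58). GSTU9 and GSTU8 lie outside any array.

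**Figure D5:**
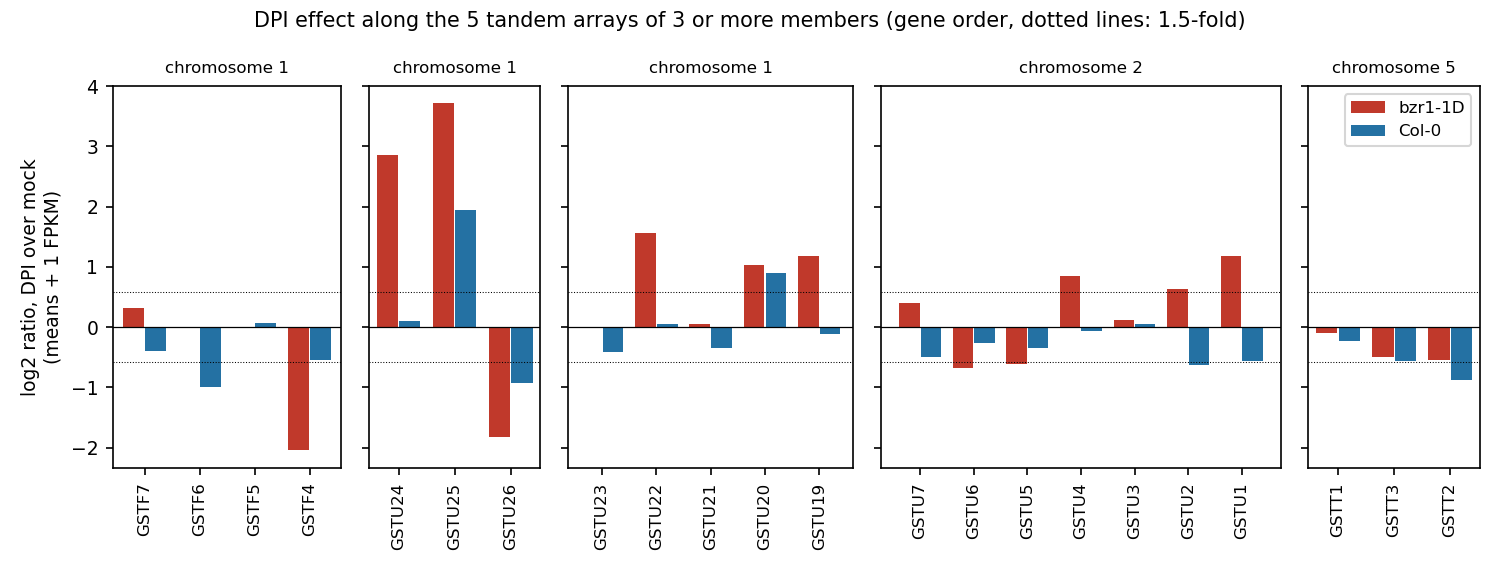
Log2 difference with DPI in bzr1-1D and in Col-0 for the members of the 5 tandem arrays with at least 3 members, in gene order along the chromosome. In the array of GSTU24 to GSTU26 the bars in bzr1-1D stand at 2.85, 3.71 and −1.82, so neighbors point in opposite directions.

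Among the small classes, GSTZ1 was at 214 FPKM in bzr1-1D DPI plus H2O2, 108 FPKM in bzr1-1D DPI, 80.8 FPKM in bzr1-1D mock, 31.6 FPKM in Col-0 DPI and 35.2 FPKM in Col-0 mock, whereas GSTZ2 stayed at or below 0.43 FPKM. Lambda enzymes reduce thiol conjugates instead of forming them. GSTL1 was at 4.67, 3.11, 1.56, 0.8 and 0.79 FPKM in the same order of groups, GSTL3 at 58.5, 40.5, 40.7, 25.8 and 23.5 FPKM, and GSTL2 was called in no comparison. Theta enzymes reduce peroxides. GSTT1 lay between 24.6 and 42.1 FPKM and was called in no comparison, whereas GSTT2 and GSTT3 were higher in bzr1-1D than in Col-0, both without and with DPI. GSTT1, GSTT2 and GSTT3 share 89.4% to 91.3% of their coding bases, so their values are uncertain too. The microsomal member AT1G65820, a membrane protein unrelated in fold to the soluble classes, was at 95.6 FPKM in bzr1-1D DPI plus H2O2, 64.9 FPKM in bzr1-1D DPI and 62.8 FPKM in bzr1-1D mock. It was called in the comparison of the first with the last of these groups only, and not after centering (0.56). Of the family-only members, AT4G19880 was at 193, 106, 79.6, 28.6 and 60.2 FPKM in the 5 groups. Across the family, 12 members were called in no comparison, and 7 of these were below 1 FPKM in every group in which they are listed.

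Glutathione metabolism outside the family was described with a list of 26 genes, for synthesis, reduction, breakdown, transport and sulfate assimilation. With DPI in bzr1-1D, 7 of 26 were higher and 6 lower (26.9% and 23.1%, against 10.5% and 20.0% of all genes), and with DPI in Col-0, 4 were higher and 4 lower (15.4% each, against 2.53% and 13.6% of all genes). After centering, 10 were higher and 5 lower in bzr1-1D (38.5% and 19.2%, against centered shares of all genes of 15.7% and 12.3%). In Col-0, 4 were then higher and 0 lower (centered shares of all genes 6.12% and 5.31%). ABCC2, a vacuolar importer of glutathione conjugates, was at 40.5 FPKM in bzr1-1D DPI and 18.0 FPKM in bzr1-1D mock, and at 15.0 FPKM in Col-0 DPI and 18.6 FPKM in Col-0 mock. GSH1, which makes the first intermediate of glutathione synthesis, was at 202 FPKM in bzr1-1D DPI plus H2O2, 134 FPKM in bzr1-1D DPI and 93.6 FPKM in bzr1-1D mock, and GR1, a cytosolic glutathione reductase, at 118, 73.9 and 54.1 FPKM in the same groups. The adenylylsulfate reductases APR1, APR2 and APR3, enzymes of sulfate assimilation, were higher with DPI in both genotypes. APR3 was at 70.6 FPKM in bzr1-1D DPI and 25.7 FPKM in bzr1-1D mock, and at 35.8 FPKM in Col-0 DPI and 16.5 FPKM in Col-0 mock. GGCT2;1, an enzyme that breaks down glutathione in the cytosol, was at 4.15 FPKM in bzr1-1D DPI and 0.34 FPKM in bzr1-1D mock, and at 1.77 FPKM in Col-0 DPI and 0.37 FPKM in Col-0 mock. Of the 8 glutathione peroxidase genes, 4 were lower with DPI in bzr1-1D (GPX1, GPX3, GPX5 and GPX7), GPX2, GPX4 and GPX8 were not called, and GPX6 was higher, with 127 FPKM in bzr1-1D DPI and 72.6 FPKM in bzr1-1D mock.

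A list of 18 genes of the xenobiotic response showed many genes higher with DPI in bzr1-1D. With DPI in bzr1-1D, 10 of 18 were higher and 1 was lower (55.6% and 5.56%, against 10.5% and 20.0% of all genes), and with DPI in Col-0, 4 were higher and 2 lower (22.2% and 11.1%, against 2.53% and 13.6% of all genes). Between bzr1-1D DPI and Col-0 DPI, 14 of 18 were higher in bzr1-1D DPI and none lower (77.8%, against 16.7% of all genes). UGT74E2, a glycosyltransferase of indole-3-butyric acid, was at 86.5 FPKM in bzr1-1D DPI and 1.75 FPKM in bzr1-1D mock, and at 28.5 FPKM in Col-0 DPI and 6.13 FPKM in Col-0 mock. OPR1, an oxophytodienoate reductase, was at 355 FPKM in bzr1-1D DPI and 89.8 FPKM in bzr1-1D mock, and at 55.1 FPKM in Col-0 DPI and 71.0 FPKM in Col-0 mock. The efflux transporter gene DTX1 was at 84.7 FPKM in bzr1-1D DPI and 3.29 FPKM in bzr1-1D mock, and at 25.5 FPKM in Col-0 DPI and 9.10 FPKM in Col-0 mock. In contrast, CYP81D11 was at 108 FPKM in bzr1-1D DPI and 135 FPKM in bzr1-1D mock, and was not called. It was at 34.6 FPKM in Col-0 DPI and 119 FPKM in Col-0 mock, and was 1 of the 2 genes lower there. ABCG40, ANAC032 and ANAC102 were not called with DPI in bzr1-1D (log2 differences 0.11, 0.06 and 0.09). The genes of the transcription factors themselves moved less. TGA5, listed as OBF5, was the lower gene, at 5.93 FPKM in bzr1-1D DPI and 9.85 FPKM in bzr1-1D mock, a call lost after centering, and SCL14 was at 25.0 FPKM in bzr1-1D DPI and 23.3 FPKM in bzr1-1D mock.

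Markers of other cells and tissues also differed between the groups. The 3 green-tissue markers (LHCB1.1, RBCS1A and RBCS3B) were all above 1 FPKM in every group and summed to 5887 FPKM in bzr1-1D DPI plus H2O2, 11253 FPKM in bzr1-1D DPI, 4864 FPKM in bzr1-1D mock, 17739 FPKM in Col-0 DPI and 11089 FPKM in Col-0 mock. With DPI, all 3 were higher in bzr1-1D, whereas in Col-0 LHCB1.1 and RBCS3B were higher and RBCS1A, which dominates the sum, was not called (log2 difference 0.47). All 3 were lower in bzr1-1D DPI plus H2O2 than in bzr1-1D DPI. The 7 root and root hair markers summed to 60.9 FPKM in bzr1-1D DPI plus H2O2, 58.1 FPKM in bzr1-1D DPI, 97.7 FPKM in bzr1-1D mock, 122 FPKM in Col-0 DPI and 78.2 FPKM in Col-0 mock, with the widest range in PRP3, a root hair gene, which was at 14.9, 9.76, 29.1, 69.3 and 16.4 FPKM in the same order. With DPI in Col-0, the higher sum came mainly from PRP3, and EXPA7 was called higher too (3.68 against 0.807 FPKM). SHR and SCR were not called there (log2 differences −0.37 and −0.32). With DPI in bzr1-1D, COBL9, EXPA7, PRP3 and SHR were lower (−0.70, −0.90, −1.49 and −0.78), and RHD6, SCR and WOX5 were not called. WOX5, a marker of the root's quiescent center, was at or below 0.51 FPKM in each group. The 2 epidermis markers summed to 660 FPKM in bzr1-1D DPI plus H2O2, 854 FPKM in bzr1-1D DPI, 731 FPKM in bzr1-1D mock, 426 FPKM in Col-0 DPI and 307 FPKM in Col-0 mock. Nearly all of this sum was PDF1, and ATML1 was called in no comparison. PDF1 was at 412 FPKM in Col-0 DPI and 290 FPKM in Col-0 mock, but ATML1 at 13.7 and 17.2 FPKM. With H2O2 added to DPI in bzr1-1D the markers differed in opposite directions too, so the sum does not stand for both. The part of these markers in the glutathione S-transferase differences was not tested. In RNA of whole tissue, fewer cells of a type and less RNA per cell cannot be told apart.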

How the data were processed

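RNA-Seq libraries of 14 samples in 5 groups were sequenced on the BGISEQ-500 platform. The submitters' processing notes name HISAT, Bowtie2 and the TAIR10 build (tool versions not given in the sources used here), and the authors compared groups with NOISeq. The deposited tables give 1 mean per gene and group in a unit taken as FPKM, since no header names it, and zeros stand at 0.01 FPKM. Columns headed ERD were read as bzr1-1D, which the table names show in that place. The deposited log2 ratios and NOISeq probabilities hold the study's own comparisons and were not used. Of 12 tables, 6 complete ones were used. The other 6 are filtered copies or end within a row.

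From the means, log2(mean + 1 FPKM) was compared between groups in Python 3.11.15 with pandas 2.3.3, and a gene was called from 1.5-fold. The steps were tested on simulated data. All genes with both means served as background. Alternatives were pseudocounts of 0.1 and 5 FPKM, 2-fold, a mean of at least 1 FPKM, centering on the median gene and members by class symbol only. Coding sequences of a class were aligned globally with Biopython 1.88, and identity was counted over the shorter sequence. Promoter windows came from RefSeq (TAIR10.1), matched by locus. All 57 members matched, and their deposited coordinates lay inside the annotated genes.

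The members and lists were chosen with earlier results of these data known. Genes named are the 10 highest members, per comparison the 3 most changed each way of at least 5 FPKM, classes of 4 or fewer members, array neighbors of these and called genes of the lists. GSTU8, GSTU13, GSTU14, GSTU28, GSTF12 and SCL14 were named after their values had been seen. ATGSTF13 and GPX4 were also named outside these rules.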

Additional observations from a re-analysis of the deposited data

How the results depend on the processing

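Counts of members called, higher and lower together, were recomputed under 6 alternatives per comparison. At 2-fold in place of 1.5-fold they were 7 in place of 17 between bzr1-1D mock and Col-0 mock, 4 in place of 13 between Col-0 DPI and Col-0 mock, 13 in place of 26 between bzr1-1D DPI and bzr1-1D mock, 18 in place of 31 between bzr1-1D DPI and Col-0 DPI, and 2 in place of 24 between bzr1-1D DPI plus H2O2 and bzr1-1D DPI. At 2-fold the DPI difference between genotypes held 12 members in place of 21, an alternative chosen after seeing the data. With a pseudocount of 5 FPKM, which shrinks low genes, the first 4 counts were 9, 7, 16 and 19, and with 0.1 FPKM Col-0 DPI vs Col-0 mock had 20. Shares of all genes were not computed at 2-fold or with these pseudocounts. Whether the family stood above all genes at those settings is therefore unknown. After centering, 14 members were called with H2O2 added to DPI, 12 of them among the 24 and 2 new, and centering turned the median of Col-0 DPI vs Col-0 mock to 0.13 from −0.11. Counts between bzr1-1D DPI plus H2O2 and bzr1-1D mock stayed within 1.5 times of 26. Of 82 calls of named members, 82 held with 0.1 FPKM, 63 with 5 FPKM and 72 after centering, and none changed sign. No paired analysis was possible because the tables hold group means only, and for the same reason no replicate could be left out and no sample could be compared with others of its group. Depth per sample is unknown.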
